A study of Mus musculus with 9 samples.

Results

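The 87 nuclear genes of oxidative phosphorylation described here encode subunits of the 5 protein complexes of the mitochondrial inner membrane, and were followed in small intestinal organoids in which Mettl3 was targeted by an inducible Cre. They were chosen by symbol among 54838 gene identifiers: Ndufa, Ndufb, Ndufc, Ndufs and Ndufv with a number, Sdha to Sdhd, the Uqcr genes, Cox4 to Cox8 with a letter a to c, and the Atp5 genes. The 8 matching symbols that end in -ps were left out. Complex I held 38 members, complex II 4, complex III 8, complex IV 19 and complex V 18. The choice used no measured value. It also misses subunits whose symbols differ, among them Ndufab1, Cox4i1, Cyc1 and Usmg5.

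Complexes I and II pass electrons from NADH and succinate to ubiquinone, complex III passes them to cytochrome c, and complex IV passes them to oxygen. Complexes I, III and IV pump protons out of the matrix, and complex V, the ATP synthase, makes ATP from the proton gradient. Most subunits are encoded in the nucleus, while mitochondrial DNA encodes a small set of core subunits of every complex except complex II. In the intestinal epithelium, absorptive enterocytes are rich in mitochondria, and Paneth cells at the crypt base have been described as more glycolytic than the stem cells beside them.

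The organoids came from crypts of C57BL/6 mice with the genotype Vil-CreERT2;Mettl3 fl/fl, so every group carried the floxed alleles and the Cre. The Cre is driven by the villin promoter, which acts in the intestinal epithelium, and 4-hydroxytamoxifen (4-OHT) activates it. The 4 groups combined 2 days of ethanol (EtOH, the solvent) or of 4-OHT at 500 nM with 5 days of DMSO or necrostatin-1 (Nec-1, an inhibitor of the kinase RIPK1). RNA-seq gave 1 library of 4-OHT Nec-1 and 2 of each of the other 3 groups. The dose of Nec-1 is stated as 5 µM in 1 place and 10 µM in another. No group without Cre received 4-OHT, so an effect of 4-OHT or of active Cre cannot be told apart from the loss of Mettl3. The labels do not say that replicates were separate cultures, and p-values then measure only the spread between these libraries, which may be technical.

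Values are FPKM, that is, fragments scaled to transcript length and to the mapped total of the library, which allow levels to be compared between genes. FPKM summed to 450207 to 498712 per library, and the number of fragments behind them is unknown. The gene-level FPKM of Mettl3, which sums over all its exons, was 2.70 and 2.71 in EtOH DMSO, 2.41 and 2.47 with EtOH Nec-1, 3.72 and 4.14 with 4-OHT DMSO and 3.36 with 4-OHT Nec-1. It was higher, not lower, in the libraries labelled 4-OHT (log2 fold change 0.41, SE 0.098, limma adjusted p = 0.0231 for 4-OHT DMSO against EtOH DMSO). The sources used here do not name the deleted exons, and reads from exons that remain would still count. Epithelial markers summed to 2368 to 3438 FPKM, fibroblast markers to 0.507 to 1.15, immune markers to 1.03 to 4.39 and endothelial markers to at most 0.144. The 4-OHT DMSO replicate 2 library stood apart, with 102 of 11766 genes at least 3-fold above every other library, against 0 to 3 genes in the others.

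Of the 87 members, 82 passed the filter of 1 FPKM in at least 2 libraries. Cox7b2, Cox8c and a second identifier of Atp5o were listed at 0 in every library, Cox8b, a muscle and brown fat isoform, reached 0.15 FPKM in 1 library, and Ndufa11b, a copy of Ndufa11, reached 0.38. Ndufs1, Sdha and Uqcrc1, which mark complexes I, II and III, were present in every library at 14.1 to 18.2, 78.1 to 141 and 77.7 to 99.4 FPKM. The members together made up 1.81% to 2.20% of each library's FPKM. Complex IV took 29.5% of the members' sum, complex I 25.0%, complex V 23.3%, complex III 17.2% and complex II 4.95%.

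The most abundant members were small subunits of complex IV. Cox8a had 543, 536, 517, 506, 467, 492 and 567 FPKM in EtOH DMSO 1 and 2, EtOH Nec-1 1 and 2, 4-OHT DMSO 1 and 2 and 4-OHT Nec-1. Cox6b1 (435 to 492 FPKM) and Cox6a1 (402 to 513 FPKM) followed, and their ranges overlapped with each other and with that of Cox8a. Atp5a1 and Atp5b, of the catalytic head of the ATP synthase, had 304 to 420 and 293 to 364 FPKM. In complex I the highest level by mean was that of Ndufa2, at 132 to 157 FPKM.

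The first comparison asked how the members differed between 4-OHT DMSO and EtOH DMSO. In complex II 3 of 4 tested members were called lower, as were 6 of 7 core subunits of complex I. In the head and central stalk of complex V 3 of 5 were called lower. These shares were 75%, 85.7% and 60%, beside 16.7% of all genes. Accessory subunits of complex I went both ways (6 fell, 5 rose), as did members of complex III (1 fell, 3 rose). After median centring of every library these 2 splits were 9 lower and 1 higher, and 3 lower and 1 higher. By limma on log2(FPKM + 1), 25 of 82 members fell (30.5%, beside 16.7% of the 12702 genes tested) and 9 rose (11.0%, beside 24.5%). The 34 calls together were 41.5% of members, close to the 41.2% of all genes called. The median log2 fold change was −0.14 over members and 0.077 over all genes.
After median centring of every library the split was 34 lower and 2 higher, beside 25.1% and 17.4% of all genes, and the medians were −0.30 over members and −0.080 over all genes. The EtOH DMSO libraries themselves differed: 74 of 82 members were higher in replicate 1 than in replicate 2, by a median of 0.18 on the log2 scale, whereas 41.5% of all genes were. Without EtOH DMSO replicate 1 the comparison called 22 members (15 lower, 7 higher). Without 4-OHT DMSO replicate 2 it called 29 (24 lower, 5 higher).

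**Figure D1:**
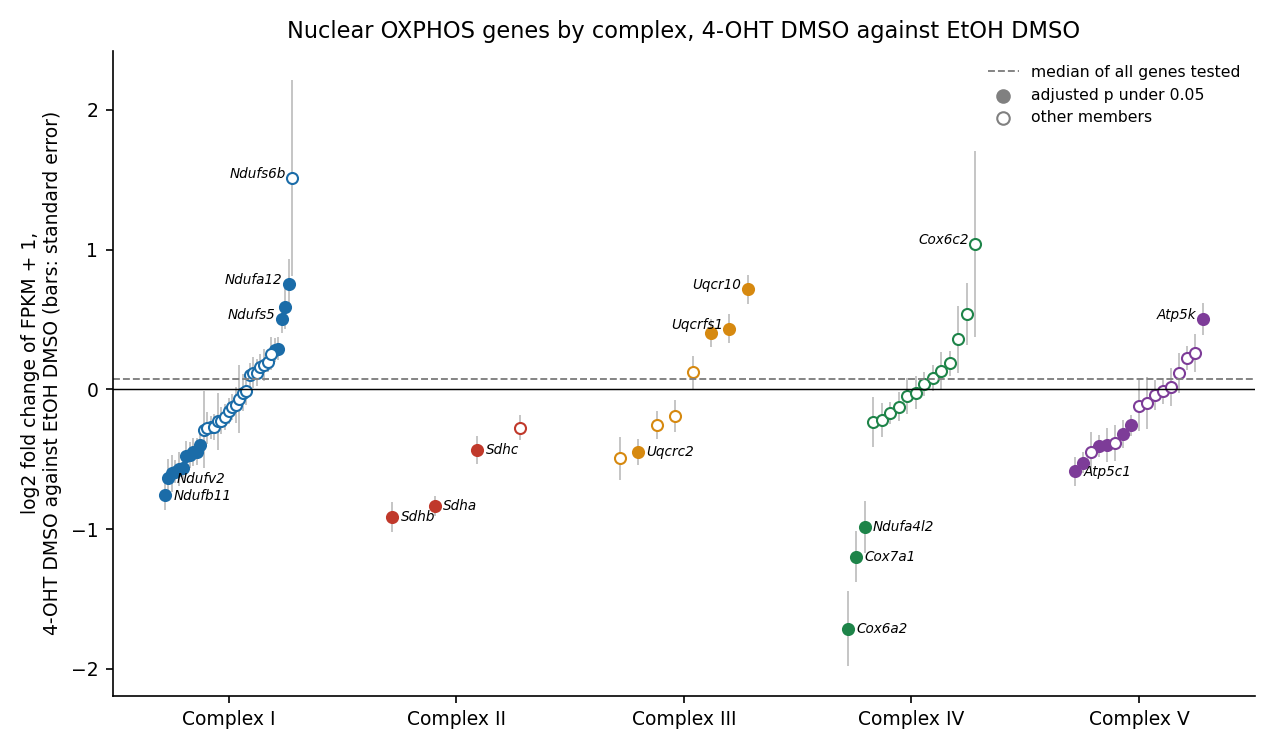
The log2 fold change of FPKM + 1 in 4-OHT DMSO against EtOH DMSO for the 82 members tested, by complex and sorted within each, with standard errors as bars; filled points passed an adjusted p of 0.05. All 4 members of complex II lie below 0, while complexes I, III and V hold members on both sides and the dashed line marks the median of all genes at 0.077.

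Cell type markers moved in the same comparison. The summed FPKM of 10 enterocyte markers was 2915 and 2686 in EtOH DMSO and 1301 and 1356 in 4-OHT DMSO, with 6 of 9 tested lower and 1 higher. The 6 Paneth markers all rose, from a sum of 8169 and 7399 to 19155 and 19688 FPKM. Goblet markers rose in 5 of 6 and enteroendocrine markers in 5 of 5, stem cell markers fell in 3 of 6 and proliferation markers in 2 of 6. These counts stand beside 24.5% of all genes that rose and 16.7% that fell. With median centring 3 goblet and 5 enteroendocrine markers were higher, and 4 stem cell and 2 proliferation markers lower. The part of these shifts in the members' values was not tested, and fewer cells of a type and less RNA per cell cannot be told apart in bulk libraries.

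To show the DNA beside the members that changed most, 120 bases before the RefSeq start (build GRCm38.p6) are given in the gene's sense direction for the 4 largest falls and the 4 largest rises among called members with a mean of at least 10 FPKM and a single start in the table. Capitals mark letters that match the palindrome bound by nuclear respiratory factor 1 (NRF1), a factor known for driving many of these genes, with any base allowed in its 6th place. With a base other than T there, the letters are no longer a palindrome. This looser pattern was added to the motifs fixed in advance. Lower:
Cox7a1 (chr7:30184051-30184170, plus strand): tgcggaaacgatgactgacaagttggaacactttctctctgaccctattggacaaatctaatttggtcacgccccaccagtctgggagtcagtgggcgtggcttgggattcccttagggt
Sdhb (chr4:140961151-140961270, plus strand): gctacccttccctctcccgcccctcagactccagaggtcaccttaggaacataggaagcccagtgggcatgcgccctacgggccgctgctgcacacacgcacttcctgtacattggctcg
Sdha (chr13:74350241-74350360, minus strand): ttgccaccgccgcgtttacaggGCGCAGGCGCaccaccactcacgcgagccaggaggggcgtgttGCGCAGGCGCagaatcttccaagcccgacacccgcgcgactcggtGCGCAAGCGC
Ndufb11 (chrX:20617620-20617739, minus strand): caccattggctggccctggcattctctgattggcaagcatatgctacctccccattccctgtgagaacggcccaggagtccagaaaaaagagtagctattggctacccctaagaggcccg
Higher:
Ndufa12 (chr10:94198915-94199034, plus strand): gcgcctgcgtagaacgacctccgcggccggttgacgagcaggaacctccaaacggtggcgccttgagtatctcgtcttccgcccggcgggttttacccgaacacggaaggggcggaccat
Uqcr10 (chr11:4704345-4704464, minus strand): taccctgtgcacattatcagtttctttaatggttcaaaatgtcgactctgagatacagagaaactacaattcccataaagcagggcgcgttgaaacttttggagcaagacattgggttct
Atp5k (chr5:108434400-108434519, minus strand): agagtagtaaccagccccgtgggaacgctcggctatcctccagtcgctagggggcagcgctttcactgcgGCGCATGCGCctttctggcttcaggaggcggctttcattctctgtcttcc
Ndufs5 (chr4:123718187-123718306, minus strand): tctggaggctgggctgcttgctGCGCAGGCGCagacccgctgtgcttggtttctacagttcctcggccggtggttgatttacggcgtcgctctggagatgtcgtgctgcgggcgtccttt

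Over the 73 promoters of 300 bases (250 before to 50 after the start) that matched 69 members, the looser NRF1 pattern was present on either strand in 24.7%, against 4.60% of all 32851 promoters in the table and 10.2% of those of tested genes. The strict palindrome, fixed in advance and included in the looser pattern, was in 6.85% of member promoters, 0.971% of all and 2.13% of those of tested genes. CCGGAAG, the core letters bound by ETS factors including GABP, were in 21.9%, 8.86% and 18.6% in the same order, and ATGGCGG, letters bound by YY1 that can also be a start codon with its next bases, in 15.1%, 4.05% and 8.27%. TGACGTCA, the cyclic AMP response element, was in 5.48%, 1.79% and 3.10%, and TCAAGGTCA, read by the oestrogen-related receptors, in 2.74%, 0.423% and 0.260%. Among members these last 2 shares stand for only 4 and 2 of 73 promoters, and that of the strict NRF1 palindrome for 5. The looser pattern stood in 6 of 20 promoters of members that fell and in 4 of 9 of members that rose. The Sdha window held it 3 times, whereas the Sdhb window, from a gene that fell by a like amount, did not hold it.

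Complex II oxidizes succinate and is shared with the citric acid cycle. Its flavoprotein Sdha had 140 and 141 FPKM in EtOH DMSO, 126 and 127 with EtOH Nec-1, 78.4 and 78.1 with 4-OHT DMSO and 80.0 with 4-OHT Nec-1. The 3 libraries labelled 4-OHT lay far below the 4 others and close to each other. Sdha fell to 0.558 of its EtOH DMSO mean (log2 fold change −0.83, SE 0.069, adjusted p = 0.00104). The iron-sulphur subunit Sdhb had 112 and 93.3 FPKM in EtOH DMSO, 110 and 108 with EtOH Nec-1, 52.3 and 55.3 with 4-OHT DMSO and 59.6 with 4-OHT Nec-1. It fell to 0.524 (log2 fold change −0.92, SE 0.11, adjusted p = 0.00263), again with no overlap between EtOH and 4-OHT libraries. Sdhc, a membrane anchor, fell by 0.43 (SE 0.099, adjusted p = 0.0205). The other anchor, Sdhd, had a log2 fold change of −0.27 and missed the threshold (adjusted p = 0.0635), although its 4-OHT DMSO libraries, both at 187 FPKM, were below both EtOH DMSO libraries, at 242 and 212. The median over the 4 genes was −0.63, and the complex's summed FPKM went from 581 and 526 to 375 and 386. With only the 4 libraries of the comparison 2 of the 4 genes were called lower, and with median centring 4. Leaving out 1 library of either arm gave medians of −0.68 (without 4-OHT DMSO replicate 2) to −0.57 (without EtOH DMSO replicate 1).

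Complex I is built from core subunits that carry the flavin, the iron-sulphur clusters and the quinone site, and from accessory subunits around them. Of 37 tested members, 12 fell (32.4%, beside 16.7% of all genes) and 5 rose (13.5%, beside 24.5%). Without EtOH DMSO replicate 1 the counts were 8 and 3. All 7 nuclear core subunits had negative fold changes and 6 passed the test, with a median of −0.57. With only the 4 libraries of the comparison 5 passed. Leaving out 1 library of either arm gave core medians of −0.65 (without EtOH DMSO replicate 2) to −0.44 (without EtOH DMSO replicate 1). Ndufv1, which holds the flavin where NADH is oxidized, fell by 0.56 (adjusted p = 0.00468), and Ndufv2, its iron-sulphur partner, fell by 0.64 (SE 0.14, adjusted p = 0.0183). In FPKM, Ndufv2 had 96.8 and 73.3 in EtOH DMSO, 88.0 and 88.5 with EtOH Nec-1, 51.7 and 56.0 with 4-OHT DMSO and 61.3 with 4-OHT Nec-1, with no overlap between EtOH and 4-OHT. Ndufs8 fell by 0.60 and Ndufs7 by 0.57, both iron-sulphur subunits of the quinone-reducing arm. Ndufs1, the largest core subunit, had the smallest called fall of the core, 0.27 (SE 0.080, adjusted p = 0.0426), from 17.8 and 18.0 to 15.2 and 14.1 FPKM. Ndufs3 had a value of −0.16 and did not pass (adjusted p = 0.245).

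Among the 28 accessory subunits of complex I, without the copies, 6 fell (21.4%) and 5 rose (17.9%), beside 16.7% and 24.5% of all genes. The median of the accessory subunits was −0.068. With median centring 9 were lower and 1, Ndufa12, higher, with a median of −0.22, and the calls numbered 7 without EtOH DMSO replicate 1 or without 4-OHT DMSO replicate 2. The membrane arm subunit Ndufb11 changed most, with 134 and 113 FPKM in EtOH DMSO, 128 and 124 with EtOH Nec-1, 71.6 and 72.6 with 4-OHT DMSO and 78.0 with 4-OHT Nec-1. It fell to 0.585 (log2 fold change −0.76, SE 0.10, adjusted p = 0.00382), and its EtOH and 4-OHT libraries did not overlap. Ndufa6, an accessory subunit of the arm that reaches into the matrix, fell by 0.47 (SE 0.095, adjusted p = 0.0135). Ndufs5, an accessory subunit of the membrane arm, had 56.6 and 49.1 FPKM in EtOH DMSO, 52.4 and 55.4 with EtOH Nec-1, 72.6 and 77.5 with 4-OHT DMSO and 58.1 with 4-OHT Nec-1, and rose by 0.50 (SE 0.098, adjusted p = 0.0125). The 4-OHT Nec-1 library of Ndufs5 was much nearer the EtOH libraries than the 4-OHT DMSO libraries were. Ndufa12 rose by 0.75 (SE 0.18, adjusted p = 0.0233), from 29.5 in both EtOH DMSO libraries to 55.8 and 45.5 FPKM, but EtOH Nec-1, at 34.6 and 48.4, overlapped with 4-OHT DMSO. Ndufa5, of the quinone-reducing arm, rose by 0.59 (adjusted p = 0.0341) with 55.9 and 74.8 FPKM in its 4-OHT DMSO libraries against 46.5 and 39.2. Ndufb6 and Ndufa1 rose by 0.29 and 0.28.

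By the assembly modules of complex I, the NADH-oxidizing arm had 6 of 10 members lower and 1 higher, the quinone-reducing arm 3 of 6 lower and 1 higher, and the proton-pumping membrane arm 3 of 19 lower and 3 higher. The shares lower were 60%, 50% and 15.8%, beside 16.7% of all genes, and the shares higher 10%, 16.7% and 15.8%, beside 24.5%. The medians of the arms were −0.36, −0.36 and −0.013. After median centring, the membrane arm had 6 lower and 0 higher. The copy Ndufs6b did not pass the test (log2 fold change 1.51, SE 0.70, adjusted p = 0.140): it had 2.42 to 3.93 FPKM in 6 libraries and 22.3 in 4-OHT DMSO replicate 2. Reads shared with Ndufs6 may be split between the genes, and Ndufs6 itself had 82.8 to 107 FPKM with a log2 fold change of −0.024.

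Complex III held changes in both directions: 3 of 8 tested members rose (37.5%, beside 24.5% of all genes) and 1 fell (12.5%, beside 16.7%). Uqcr10, a small accessory subunit, had 328 and 277 FPKM in EtOH DMSO, 316 and 310 with EtOH Nec-1, 489 and 502 with 4-OHT DMSO and 473 with 4-OHT Nec-1. All libraries labelled 4-OHT were above all EtOH libraries, and Uqcr10 rose 1.64-fold (log2 fold change 0.72, SE 0.10, adjusted p = 0.00493). Uqcrfs1, the Rieske iron-sulphur protein, had 210 and 184, 195 and 206, 255 and 279, and 301 FPKM in the same order of groups. It rose by 0.44 (SE 0.10, adjusted p = 0.0221), and its highest value was with 4-OHT Nec-1. Uqcrq, beside the cytochrome b subunit, rose by 0.40 (SE 0.10, adjusted p = 0.0264). Uqcrc2, a core protein, fell by 0.45 (SE 0.094, adjusted p = 0.0150), while its partner Uqcrc1 (log2 fold change −0.25, adjusted p = 0.0944) and the hinge protein Uqcrh (−0.49, adjusted p = 0.0529) missed the threshold. With median centring, or with only the 4 libraries of the comparison, Uqcr10 was the sole called rise of complex III. Without EtOH DMSO replicate 2 it was the sole call of the complex, and without either EtOH Nec-1 library 1 member rose and 1 fell.

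**Figure D2:**
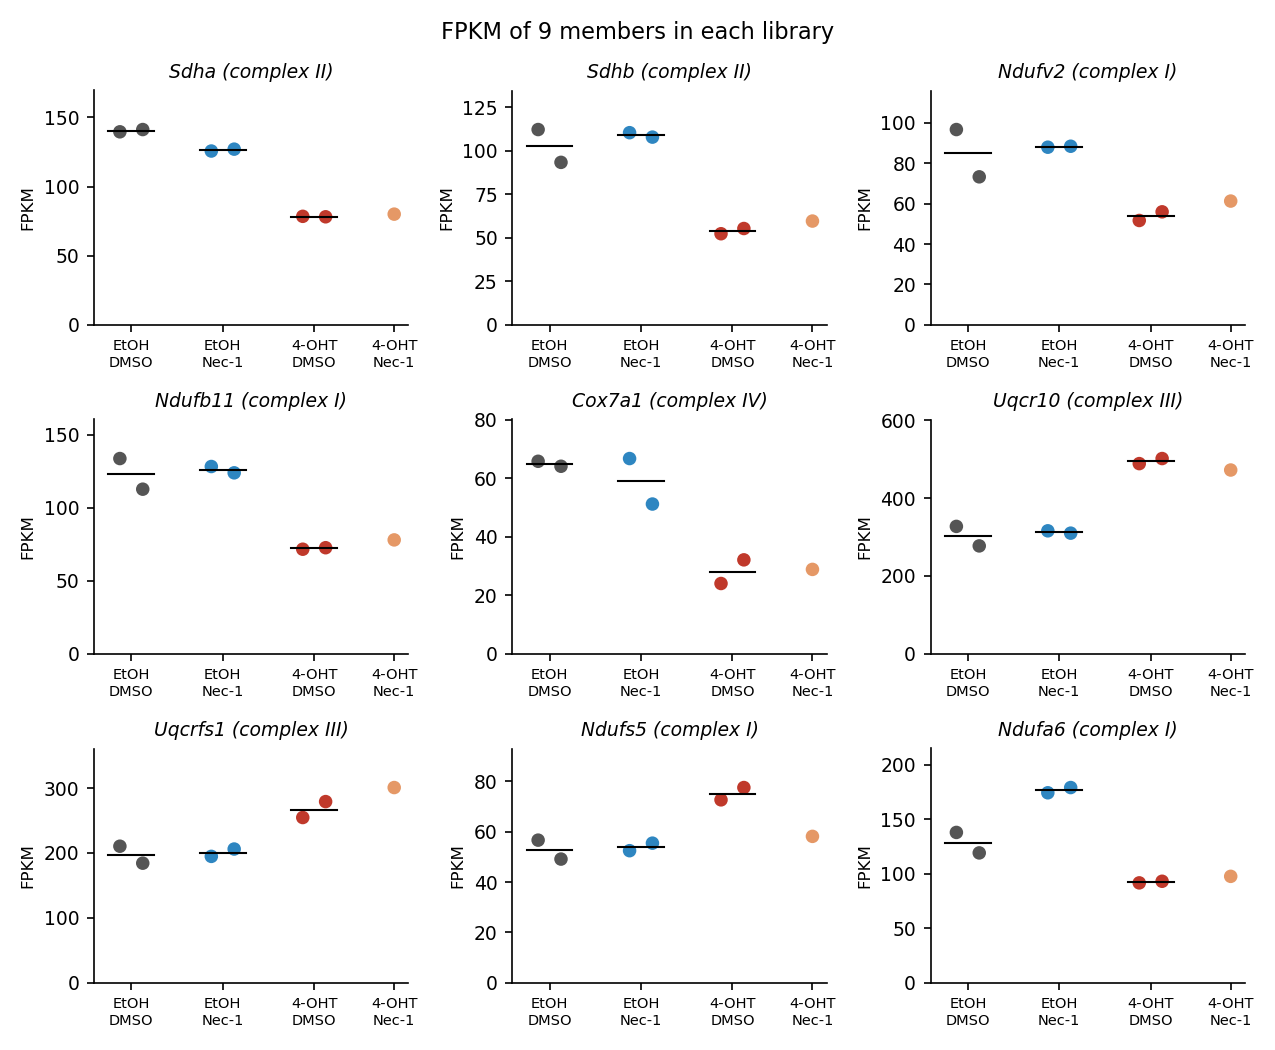
FPKM of 9 members in each of the 7 libraries by group, 1 point per library, with group means as black lines; each axis starts at 0. Sdha, Sdhb, Ndufv2, Ndufb11 and Cox7a1 are lower, and Uqcr10 and Uqcrfs1 higher, in all 3 libraries labelled 4-OHT than in the 4 EtOH libraries, while Ndufa6 is highest with EtOH Nec-1 at 174 and 179 FPKM.

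In complex IV, 3 of 16 tested members fell (18.75%, close to the 16.7% of all genes) and 0 rose (beside 24.5%). All 3 that fell were isoforms found mainly in other tissues or conditions. With median centring 4 were lower, among them the widely expressed Cox8a (log2 fold change −0.33, limma adjusted p = 0.0385). Upper quartile scaling also gave 4 lower, and 0 were higher with either scaling. Cox7a1, the heart and muscle isoform of subunit 7a, had 65.9 and 64.1 FPKM in EtOH DMSO, 66.8 and 51.2 with EtOH Nec-1, 24.0 and 32.1 with 4-OHT DMSO and 28.9 with 4-OHT Nec-1. It fell to 0.432 (log2 fold change −1.20, SE 0.18, adjusted p = 0.00549) with no overlap between EtOH and 4-OHT. The widely expressed isoform Cox7a2 had 168 to 208 FPKM in the same 4 DMSO libraries and a log2 fold change of −0.024. Cox7a1 thus made up 24.0% and 27.7% of the summed FPKM of Cox7a1 and Cox7a2 in EtOH DMSO, 23.5% and 19.2% with EtOH Nec-1, 11.5% and 14.9% with 4-OHT DMSO and 14.3% with 4-OHT Nec-1. Cox6a2, the muscle isoform of subunit 6a, had 2.88 and 2.32 FPKM in EtOH DMSO, 0 and 0.20 in 4-OHT DMSO and 0.69 with 4-OHT Nec-1. Its fall of 1.71 (SE 0.27, adjusted p = 0.00624) was the largest of all members on the log2(FPKM + 1) scale but concerned at most 1.02% of the summed FPKM of Cox6a1 and Cox6a2.

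Ndufa4, first assigned to complex I, is a subunit of complex IV, and Ndufa4l2 is its hypoxia-inducible relative. Ndufa4l2 had 29.5 and 27.0 FPKM in EtOH DMSO, 25.3 and 23.2 with EtOH Nec-1, 11.2 and 16.8 with 4-OHT DMSO and 23.2 with 4-OHT Nec-1. It fell by 0.99 (SE 0.19, adjusted p = 0.0111), yet the 4-OHT Nec-1 library was level with EtOH Nec-1. Ndufa4 had a log2 fold change of 0.54 that missed the threshold (adjusted p = 0.107), and its 4-OHT DMSO libraries were at 133 and 91.3 FPKM. The share of Ndufa4l2 in the pair was 27.0% and 27.3%, 16.9% and 20.0%, 7.76% and 15.6%, and 15.5% in the order of groups above. The 13 other tested members of complex IV did not pass without centring. Cox5a, Cox5b, Cox6a1, Cox6b1, Cox6c, Cox7a2, Cox7b, Cox7c and Cox8a had values from −0.22 (Cox7b) to 0.19 (Cox5a). The calls of complex IV numbered 5 (4 lower, 1 higher) without 4-OHT DMSO replicate 2. Cox6c2, a copy of Cox6c, had 4.42 to 8.71 FPKM in 6 libraries and 23.4 in 4-OHT DMSO replicate 2.

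**Figure D3:**
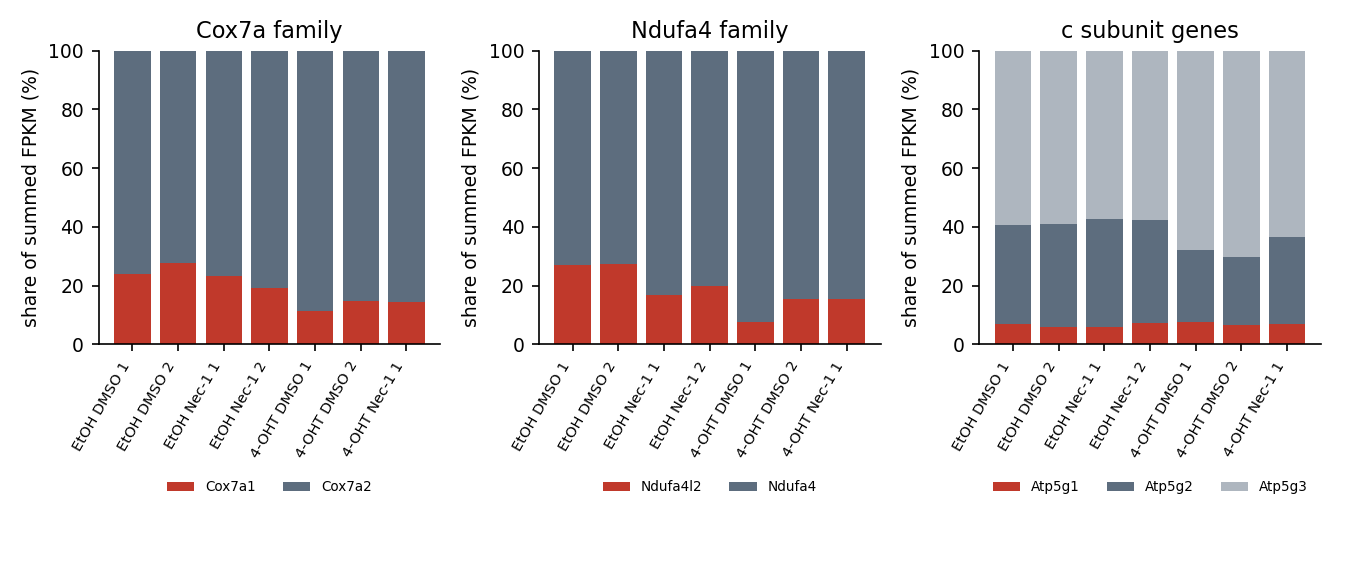
Share of the summed FPKM (%) taken by each gene of 3 isoform families in each of the 7 libraries; bars add to 100%. Cox7a1 takes 19.2% to 27.7% in the EtOH libraries and 11.5% to 14.9% in those labelled 4-OHT, and Atp5g3 takes 57.3% to 59.3% and 63.4% to 70.3%.

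Complex V consists of the F1 head that makes ATP, the membrane Fo part with its ring of c subunits, and the stalks between them. Of 17 tested members, 6 fell (35.3%, beside 16.7% of all genes) and 1 rose (5.88%, beside 24.5%). The counts were 3 lower and 1 higher without EtOH DMSO replicate 1 and with the 4 libraries of the comparison alone, 3 and 0 without 4-OHT DMSO replicate 1, 2 and 0 without either EtOH Nec-1 library, and 8 and 0 with median centring. In the head and central stalk 3 of 5 fell (1 without either EtOH Nec-1 library). Atp5c1, the gamma subunit that turns within the head, had 240 and 223 FPKM in EtOH DMSO, 202 and 235 with EtOH Nec-1, 149 and 158 with 4-OHT DMSO and 164 with 4-OHT Nec-1, and fell by 0.59 (SE 0.10, adjusted p = 0.00905). Atp5a1 fell by 0.40 (SE 0.079, adjusted p = 0.0125) and Atp5b by 0.26 (SE 0.075, adjusted p = 0.0422), so the most abundant members of the complex moved less than the gamma subunit. In the peripheral stalk, Atp5h fell by 0.39 and Atp5f1 by 0.32.

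The c subunit is encoded by 3 genes whose mature proteins are alike. Atp5g2 had 122 and 117 FPKM in EtOH DMSO, 120 and 116 with EtOH Nec-1, 85.7 and 80.3 with 4-OHT DMSO and 99.1 with 4-OHT Nec-1, and fell by 0.52 (SE 0.077, adjusted p = 0.00502). Atp5g3, the most abundant of the 3, had 215 and 197, 188 and 190, 236 and 245, and 213 FPKM in the same order, with a log2 fold change of 0.22 that missed the threshold (adjusted p = 0.0798). Atp5g1, at 20.1 to 26.0 FPKM, had a value of 0.12. The share of Atp5g3 was 59.3% and 58.8% in EtOH DMSO, 57.3% and 57.5% with EtOH Nec-1, 67.8% and 70.3% with 4-OHT DMSO and 63.4% with 4-OHT Nec-1, so EtOH and 4-OHT did not overlap. Atp5k, a small membrane subunit, rose by 0.50 (SE 0.12, adjusted p = 0.0215), from 128 and 109 to 179 and 157 FPKM, while the 4-OHT Nec-1 library was at 112.

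The second comparison asked what Nec-1 did in organoids without 4-OHT. No member passed the limma test (0 of 82), beside 28 of 12702 genes (0.22%). At an unadjusted p under 0.05 there were 3 members and 1689 genes (13.3%). The median log2 fold change was 0.018 over members and −0.094 over all genes. Ndufa6 came nearest, with 138 and 119 FPKM in EtOH DMSO and 174 and 179 with EtOH Nec-1 (log2 fold change 0.46, SE 0.095, adjusted p = 0.198). Cox7a2l, an assembly factor of respiratory supercomplexes, had the largest value, 0.57 (SE 0.18, adjusted p = 0.310), with 130 and 114 FPKM in EtOH DMSO and 181 and 182 with EtOH Nec-1. Both genes had their EtOH Nec-1 libraries above every other library. In all, 17 members were higher in both Nec-1 libraries than in both DMSO libraries (20.7%, beside 10.5% of all genes) and 19 were lower in both (23.2%, beside 39.1%). EtOH DMSO is shared by the first and the second comparison.

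The single 4-OHT Nec-1 library allows no test. Against the 4-OHT DMSO libraries, 18 of 81 members lay above both (22.2%, beside 24.5% of 12036 genes) and 39 below both (48.1%, beside 50.6%), shares close to the background, and the median differences were −0.060 over members and −0.089 over all genes. With median centring the split turned to 40 above and 23 below, a split not counted over all genes. The medians were then 0.055 over members and 0.025 over all genes. Of the 17 members higher with Nec-1 in EtOH organoids, 4 were above both libraries here and 9 below both, and of the 19 lower ones, 8 were below both and 3 above. These 2 contrasts share no library, and the same splits over all genes were not counted. Between the 2 contrasts the Pearson r was −0.29 across 81 members and 0.30 across 11937 genes. This is a description that rests on the single 4-OHT Nec-1 library. Among members outside both 4-OHT DMSO libraries, Ndufa4l2 had the largest difference upward, 0.72, followed by Atp5j, of the peripheral stalk, at 0.31, Atp5g2 at 0.25 and Cox8a at 0.24. Downward, with the same limit, Ndufs6b lay at −1.61 against libraries that differed 6-fold, Cox6b2, the testis isoform, at −0.60 with 1.68 FPKM, Atp5k at −0.58 and Ndufa12 at −0.39.

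Against EtOH Nec-1, the same library repeats the comparison of 4-OHT with EtOH in the presence of Nec-1, with no library in common with the first comparison. Here 56 of 82 members lay below both EtOH Nec-1 libraries (68.3%, beside 38.8% of 11746 genes) and 13 above both (15.9%, beside 49.9%), and the median difference was −0.21 over members and 0.067 over all genes. By complex, 26 of 37 members of complex I, 4 of 4 of complex II, 4 of 8 of complex III, 9 of 16 of complex IV and 13 of 17 of complex V lay below both. Of the 25 members that fell with DMSO, 24 lay below both libraries (96.0%, beside 94.1% of all genes that fell), Ndufa4l2 being the exception. Of the 9 that rose, 7 lay above both (77.8%, beside 95.4%), Ndufa12 lay between them and Atp5k lay below both. Across the 82 members the 2 differences had a Pearson r of 0.64 and a Spearman rho of 0.68, beside an r of 0.78 over all genes. These are descriptions across genes that share libraries and depth.

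**Figure D4:**
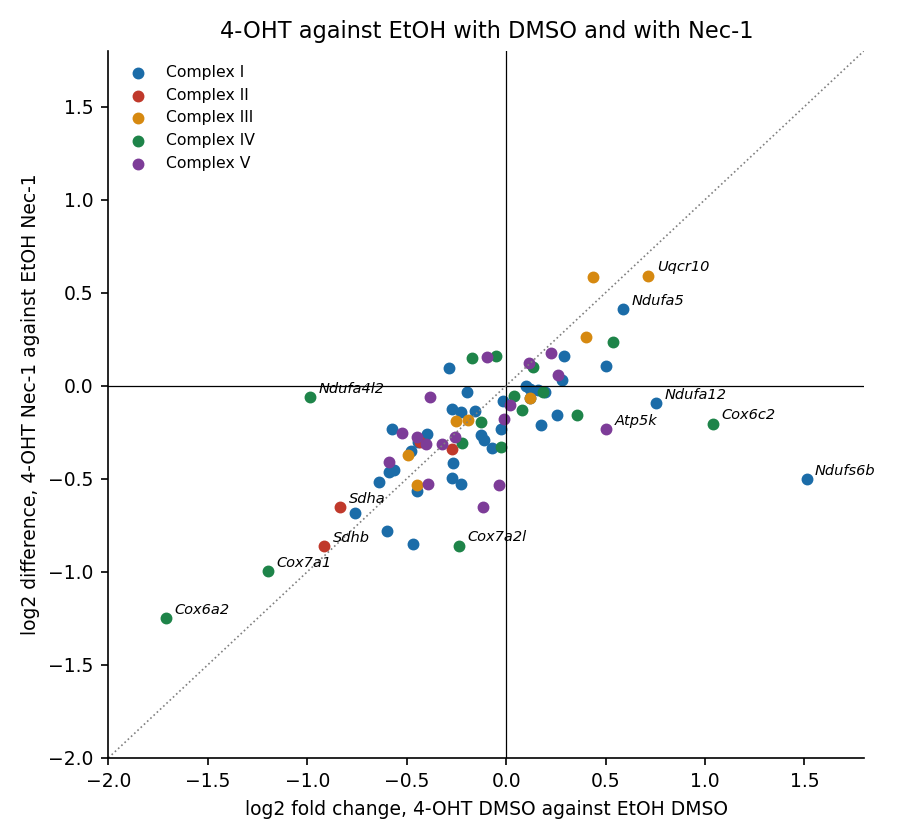
The log2 fold change of 4-OHT against EtOH with DMSO (horizontal) and the log2 difference with Nec-1 (vertical, 1 library against 2) for 82 members, coloured by complex; the dotted line marks equal values. Complex II, Cox7a1 and Cox6a2 lie low on both axes, and Uqcr10 lies high on both, while Atp5k, Ndufa12 and Ndufs6b lie right of 0 and below 0.

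The rest of the pathway was read from lists of genes outside the symbol rule, in 4-OHT DMSO against EtOH DMSO. Of all genes tested, 24.5% rose and 16.7% fell. Of 13 subunits encoded in mitochondrial DNA, 3 rose and 3 fell. mt-Co1, the catalytic subunit of complex IV, fell by 0.67 (adjusted p = 0.0182), from 25402 and 22694 to 14490 and 15702 FPKM, while mt-Atp8 rose by 0.79 (adjusted p = 0.0450). With median centring 0 were higher and 3 lower. Of 10 tested subunits and carriers with other symbols, 2 rose and 3 fell: cytochrome c, Cycs, rose by 0.64 (adjusted p = 0.00878), as did Ndufb1-ps, the mouse gene of subunit Ndufb1, by 0.61, and the ATP synthase inhibitor Atpif1 fell by 0.88, Etfa by 0.50 and Cyc1, cytochrome c1, by 0.28. With median centring 2 were higher and 5 lower.

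Assembly factors help to build the complexes without staying in them. The counts of this paragraph, too, stand beside 24.5% of all genes that rose and 16.7% that fell. Of 15 factors for complex I, 4 rose and 1 fell, and Ndufaf4 had 3.94 and 2.77 FPKM in EtOH DMSO, 4.05 and 3.29 with EtOH Nec-1, 15.3 and 14.5 with 4-OHT DMSO and 14.8 with 4-OHT Nec-1 (log2 fold change 1.88, SE 0.16, adjusted p = 0.00112). The 3 libraries labelled 4-OHT were close to each other and far above the rest. Of 10 factors for complexes II and III, 3 rose and 0 fell. Of 23 for complex IV, 7 rose and 3 fell, led by Sco2, a copper chaperone, at 2.36 (SE 0.26, adjusted p = 0.00208) and Higd2a at −0.65. Of 4 factors for complex V, 0 passed the limma test, and 0 had an unadjusted p under 0.05. Of 13 tested regulators of mitochondrial biogenesis, 1 rose, the coactivator Pprc1, by 0.89. Of 16 citric acid cycle enzymes, complex II not included, 7 fell and 0 rose, with a median of −0.26, led by Idh3g, a subunit of isocitrate dehydrogenase, which fell by 0.73, and Fh1, fumarase, which fell by 0.65. With median centring, 4 complex I factors were higher and 2 lower, 2 and 2 of those for complexes II and III, 5 and 4 for complex IV, 0 and 0 for complex V, 1 and 2 of the regulators, and 0 and 10 of the citric acid cycle enzymes.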

How the data were processed

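The authors sequenced organoid RNA by Illumina and deposited FPKM per Ensembl gene and library. The submitters' processing notes name HISAT2 2.1.0, StringTie 1.3.3b and mm10. Symbols matched 54723 of 54838 identifiers. In 1 table, 2 further columns repeated other tables' values. The 2 Atf3 chromatin samples were not analysed here.

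Tools were limma 3.58.1 (R 4.3.3), Python 3.11.15, pandas 2.3.3, numpy 2.4.6, matplotlib 3.10.9 and scipy 1.17.1. limma with a mean-variance trend was fitted to log2(FPKM + 1) of 12702 genes that reached 1 FPKM or more in 2 or more libraries, over 7 libraries with 1 mean per group, 2-sided, with Benjamini-Hochberg adjustment over all genes and a threshold of 0.05. Fold changes on this scale understate changes of low genes. Comparisons with the single 4-OHT Nec-1 library counted genes outside both libraries of the other group, where the 3 libraries averaged 1 FPKM or more.

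limma was also run on simulated data for 4-OHT DMSO against EtOH DMSO (12702 genes). It recovered 8.94%, 56.1% and 85.4% of simulated shifts of 0.5, 1 and 2 log2 units, and 5.26% of its calls were false. Only a small part of the genes was shifted in each simulated run, far below the 41.2% of all genes called in the measured comparison. Whether the simulated shares carry over to that comparison was not tested. Members and lists were chosen with earlier results of these data known. Named were the complexes' markers, their 2 most abundant members, up to 3 largest called rises and falls per complex, the 4 largest differences each way with 4-OHT Nec-1, the isoform families and the extremes of each list; other members were named after their values were seen. Alternatives were scaling, filter, pseudocount, trend, a replicate block and leaving out libraries. Promoters came from RefSeq (GRCm38.p6). Some items are not reported here.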

Additional observations from a re-analysis of the deposited data

Results flagged for a closer look

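Some named members had effects that pointed opposite ways in every library of the groups compared. In each case the difference between the 2 effects was not tested, since it rests on the single 4-OHT Nec-1 library. The share of all genes with such opposite effects was not counted, so the counts of members have no background. A position outside 2 libraries is common: 24.5% of all genes lay above both 4-OHT DMSO libraries with 4-OHT Nec-1, and 50.6% below both. With EtOH Nec-1 against EtOH DMSO beside 4-OHT Nec-1 against 4-OHT DMSO, 12 of 82 members had opposite effects. Among the named ones, Sdha had −0.15 and 0.032 (difference 0.18), Cox7a2 0.21 and −0.089 (difference −0.30), Cox8a −0.076 and 0.24 (difference 0.32), Ndufa4l2 −0.21 and 0.72 (difference 0.93), Ndufa2 0.067 and −0.16 (difference −0.23), Ndufa12 0.46 and −0.39 (difference −0.85), and the copy Ndufs6b 0.40 and −1.61 (difference −2.01).

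With 4-OHT against EtOH in DMSO beside the same in Nec-1, 6 of 82 members did so. Atp5k had 0.50 and −0.23 (difference −0.74), Cox8a −0.17 and 0.15 (difference 0.32), Ndufa2 0.20 and −0.031 (difference −0.23) and Ndufs6b 1.51 and −0.50 (difference −2.01). Of these genes, Ndufa12, Atp5k and Ndufa4l2 passed the limma test between 4-OHT DMSO and EtOH DMSO, as did Sdha. The values of Ndufs6b rest on 4-OHT DMSO replicate 2, at 22.3 FPKM, beside 3.71 in replicate 1.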

How the results depend on the processing

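In 4-OHT DMSO against EtOH DMSO, 34 members were called. The count was 21 without a filter on low values and 18 with an added fold threshold of 0.5 log2 units, and 22 to 34 when 1 library was left out, of either arm or of the Nec-1 groups (the last chosen after seeing the data). The count was 22 without EtOH DMSO replicate 1, without EtOH Nec-1 replicate 1 or without EtOH Nec-1 replicate 2. Every alternative kept more members lower than higher. The members' median went from −0.14 to −0.30 with median centring and to −0.30 with upper quartile scaling, and was −0.24 to −0.042 when 1 library was left out. Between EtOH Nec-1 and EtOH DMSO the count was 0 under every alternative run, while the median went from 0.018 to 0.12 with upper quartile scaling and to between −0.083 (without EtOH DMSO replicate 2) and 0.12 (without EtOH DMSO replicate 1) when 1 library was left out. For 4-OHT Nec-1 against 4-OHT DMSO, the median difference went from −0.060 to 0.055 with median centring, 0.065 with upper quartile scaling and −0.10 to −0.049 when 1 library was left out, and 6 members, not 57, were outside both libraries by at least 0.3. Against EtOH Nec-1, the median of −0.21 was −0.34 with median centring and with upper quartile scaling, −0.22 with a pseudocount of 0.1, −0.20 with all genes above 0, and −0.21 when 1 library was left out, and 28 members, not 69, were outside both by at least 0.3. The cause was not tested. No share of all genes at the margin of 0.3 is given here, so the counts of 6 and 28 members have no background.

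Replicate numbers did not pair the libraries: deviations of same-numbered libraries correlated by −0.040, 0.0065 and −0.012. With the replicate block, 30 members were called between 4-OHT DMSO and EtOH DMSO (23 lower, 7 higher) and 0 between EtOH Nec-1 and EtOH DMSO.

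Of 23 named calls, 9 held under every alternative in which the gene was tested, the added fold threshold left aside: Sdha, Sdhb, Cox6a2, Cox7a1, Atp5g2, Ndufa6, Uqcr10, Ndufb11 and Atp5c1. Cox6a2 was not tested among genes at 1 FPKM in every library. No called value changed sign. Uncalled ones did. Between 4-OHT DMSO and EtOH DMSO, Cox6b1 became −0.075 with median centring and −0.084 with upper quartile scaling, and Atp5g1 −0.041 and −0.043. Leaving out 1 library at a time gave Cox6b1 values of −0.0066 to 0.17, Atp5g1 −0.044 to 0.28, Cox6a1 −0.19 to 0.090, Cox7a2 −0.18 to 0.13, Cox7a2l −0.49 to 0.023 and Atp5j −0.35 to 0.15. Between EtOH Nec-1 and EtOH DMSO, median centring and upper quartile scaling gave Cox8a 0.023 and 0.032, Atp5a1 0.031 and 0.040 and Atp5b 0.065 and 0.074, and upper quartile scaling gave Uqcrc1 0.0020. Fragment counts are unknown, so no limit from depth was set.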

Other observations

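The 13 subunit genes of mitochondrial DNA had higher values with Nec-1, although 0 passed the test. Their summed FPKM was 66302 and 61426 in EtOH DMSO, 86247 and 81342 with EtOH Nec-1, 62908 and 61534 with 4-OHT DMSO and 86941 with 4-OHT Nec-1. Of the 13, 12 were above both EtOH DMSO libraries in both EtOH Nec-1 libraries (beside 10.5% of all genes), and 12 were above both 4-OHT DMSO libraries in the 4-OHT Nec-1 library (beside 24.5%), 2 contrasts that share no library. In the limma comparison of EtOH Nec-1 with EtOH DMSO, 0 of the 13 passed. An unadjusted p under 0.05 was found for 9, beside 13.3% of all genes. The median log2 fold change was 0.38 over the 13 and −0.094 over all genes. FPKM are relative to each library's total.

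Pet117, a complex IV assembly factor, was listed at or under 0.0046 FPKM in all 4 DMSO libraries, at 10.8 and 11.1 with EtOH Nec-1 and at 15.1 with 4-OHT Nec-1. It was the only gene of the pathway lists called by limma between EtOH Nec-1 and EtOH DMSO (adjusted p = 0.000243). Whether its values near 0 reflect an absent transcript or the assignment of reads between genes was not tested. The pseudogene Atp5k-ps2 had 41.0 FPKM in 4-OHT DMSO replicate 2 and 0.77 to 5.87 in the others.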
